A study of Homo sapiens with 10 samples.

Results

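RNA editing was followed in 10 genes of autophagy and mitophagy in HUDEP-2, a human cell line of immortalised erythroid progenitors. The genes are ATG3, ATG5, ATG7, ATG12, ATG13, BNIP3L, GABARAPL2, MAP1LC3B, SQSTM1 and ULK1. Every deposited editing site that lay inside the GENCODE release 29 body of one of them (GRCh38) was taken, and 8 of the 10 held at least 1 site, of 10312 genes in all that did. ATG5 and ULK1 held none. With APOBEC1, 71 of 18069 sites lay in 7 members, namely 23 in BNIP3L, 15 in GABARAPL2, 14 in MAP1LC3B, 11 in ATG3, 4 in ATG12, 3 in ATG13 and 1 in ATG7. With ADARcd, 15 of 16768 sites lay in 5 members, namely 5 in BNIP3L, 4 in ATG12, 3 in ATG13, 2 in ATG7 and 1 in SQSTM1.

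In the study a protein was joined to an RNA deaminase, so that editing marks RNA the fusion came close to. The protein was the poly(A) polymerase FAM46C, whose gene carries the symbol TENT5C, or GFP as the control. APOBEC1 turns C into U, read as T, and the catalytic domain of ADAR (ADARcd) turns A into inosine, read as G. All 10 groups were HUDEP-2 cells carrying 1 construct under a doxycycline-inducible (TRE) promoter: GFP-7aa-APOBEC1, FAM46C-7aa-APOBEC1, FAM46C-27aa-APOBEC1, FAM46C-52aa-APOBEC1, FAM46C-74aa-APOBEC1, GFP-7aa-ADARcd, FAM46C-7aa-ADARcd, FAM46C-27aa-ADARcd, FAM46C-47aa-ADARcd and FAM46C-74aa-ADARcd, where the number is the length of the linker in amino acids. Doxycycline was given for 48 h by the sample labels and for 24 h by the series design. Each construct had 1 library, so no value below has a replicate check, and each test compares 2 libraries and not 2 conditions.

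Autophagy encloses cytoplasm in a double membrane and delivers it to the lysosome. The ULK1 kinase complex, with ATG13 as a scaffold, starts the process. Ubiquitin-like conjugation systems then extend the membrane: ATG7 activates both, ATG12 is joined to ATG5, and ATG3 transfers proteins of the ATG8 family, such as MAP1LC3B and GABARAPL2, to a membrane lipid. Cargo receptors tie the load to the ATG8 proteins, among them SQSTM1 (p62) for ubiquitinated cargo and BNIP3L (NIX) for mitochondria. Maturing red cells clear their mitochondria, and BNIP3L is the receptor best known for this step.

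Sites of ATG3, MAP1LC3B, GABARAPL2, ATG12 and ATG7 are given here as 21 bases of the annotated transcript strand (GENCODE 29), with the edited C in capitals. No APOBEC1 site of ATG13 is shown, nor any of BNIP3L, the member with the most edited reads. Positions 112532752 and 112532723 of ATG3 (chromosome 3, minus strand, last of 12 exons) and the first site of each other gene hold the most edited reads of that member over the 5 APOBEC1 libraries. The other ATG3 sites and the other MAP1LC3B sites were chosen after their values were seen, from those at which GFP had at most 1 edited read and at least 1 fusion had 4 or more. Not every such site is shown.
ATG3 coding, position 112532752: gaaatttgtaCaagctgtcat
ATG3 coding, position 112532723: tagaatatgaCtacacaagac
ATG3 coding, position 112532713: ctacacaagaCacttcacaat
ATG3 3' UTR, position 112532538: accagccttaCttgtttaata
MAP1LC3B 3' UTR, position 87403264: agcagaaaaaCtgagctccaa
MAP1LC3B 3' UTR, position 87403220: agtgttcccaCctaggagtgt
MAP1LC3B 3' UTR, position 87403357: aaataaaataCtttgcattct
GABARAPL2 3' UTR, position 75577857: aaataattaaCaataaaaatt
ATG12 3' UTR, position 115831682: tatgtgtctaCtctatgttta
ATG7 coding, position 11380028: tggcatttgaCaaatgtacag
In all 10, a selection of the member sites, the base before the edited C is an A. Of the 69 member sites in exons, 53 (76.8%) had an A there, against 63.2% of the 16386 exonic APOBEC1 sites of the series.

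The APOBEC1 tables held 627250 to 748913 reads per library over their sites, and those of ADARcd from 160157 to 522608. Edited reads made up 2.91% of all reads with GFP-APOBEC1 and 4.18%, 3.05%, 2.93% and 1.24% with the 7, 27, 52 and 74 aa fusions, so the libraries differ as a whole and each member is read against that. Every listed site had at least 2 edited reads in 1 library or more, and a site with less is not represented. A site that reached 2 in a single library was thus bound to be high there. At 1 TENT5C coding site, position 117623069 of chromosome 1, edited reads were 0 of 45 with GFP (which allows up to 6.67%) and 93.6% to 96.6% with the 4 APOBEC1 fusions, where reads from the construct count as TENT5C. A TENT5C site in the 3' UTR, 117627865, went the other way and was listed through GFP alone. It had 2 of 19 edited reads with GFP and 0 of 17, 0 of 27, 0 of 18 and 1 of 23 with 7, 27, 52 and 74 aa. Of 14 erythroid marker genes 6 held an APOBEC1 site, and of 8 markers of other cell types 2 did, EPCAM with 386 to 637 reads and PTPRC with 7 to 17. A gene without a listed site is not thereby silent.

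Over all member sites, 92 of 3857 reads (2.39%, 95% Wilson interval 1.95 to 2.92) were edited with GFP-APOBEC1. The 7 aa fusion gave 240 of 4552 (5.27%, 4.66 to 5.96), the 27 aa fusion 145 of 3803 (3.81%, 3.25 to 4.47), the 52 aa fusion 159 of 4166 (3.82%, 3.28 to 4.44) and the 74 aa fusion 34 of 4119 (0.825%, 0.591 to 1.15). Intervals here and below cover counting error only, since PCR copies were not told apart by molecular identifiers. Where neighbouring sites are pooled, the same read can count at several of them, so these intervals are also too narrow. The 3 shorter linkers thus lay above GFP over the members and the longest below it.

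Per gene, edited and unedited reads were summed over the sites read in all 5 libraries of a deaminase and compared with GFP by a two-sided Fisher's exact test, adjusted over all 6192 APOBEC1 genes. With the 7 aa fusion 2 of 7 members were called higher, ATG3 and BNIP3L, where 4.15% of all genes were, and 0 were called lower, where 0.824% were. With 27 aa 1 of 7 was called higher, ATG3 (background 1.65%), and 0 lower (1.32%). With 52 aa 2 of 7 were called higher, BNIP3L and MAP1LC3B (1.07%), and 0 lower (0.888%). With 74 aa 0 of 7 were called higher (0.113%) and 2 lower, BNIP3L and GABARAPL2 (5.18%). The median member lay 2.89, 1.90 and 1.31 percentage points above GFP with 7, 27 and 52 aa and stood at −0.168 with 74 aa, beside medians over all genes of 0, 0, 0 and −0.338. The 52 aa median is the value of ATG12, which rests on 2 of 153 edited reads against 0 of 145 with GFP. The 4 comparisons share the GFP library, and a call in several of them is not a repeat. The shares over all genes, here and below, are not matched to the members in sites or reads. A gene with more reads is called more easily, and the called members had 428 to 1683 GFP reads. Measured against the odds ratio of all reads instead of 1, the calls over all genes were 97 higher and 115 lower at 7 aa (257 and 51 against 1), and 28 higher and 24 lower at 74 aa (7 and 321 against 1).

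**Figure D1:**
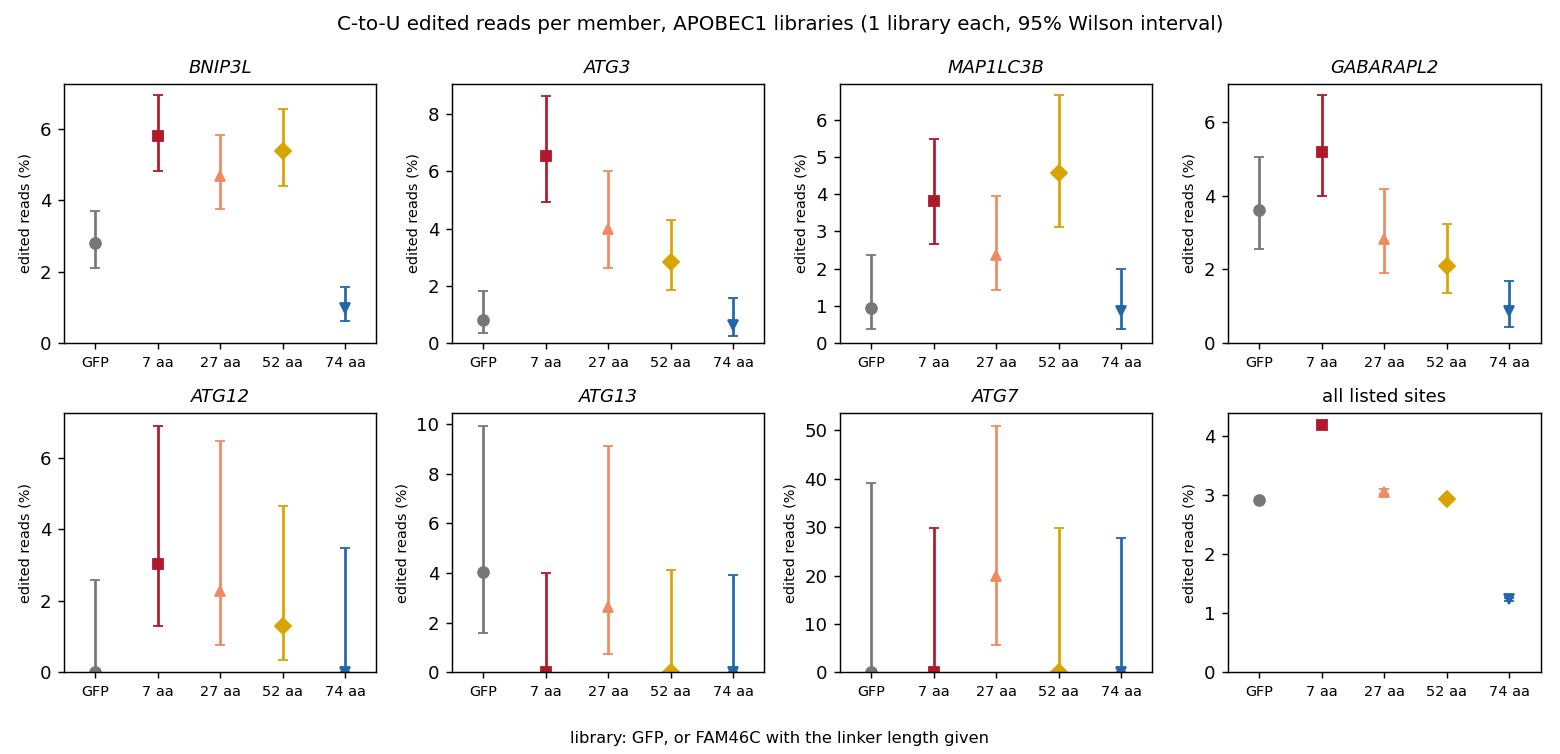
Edited reads (%) on the y axis for each member and for all listed sites in the 5 APOBEC1 libraries (x axis: GFP, then FAM46C with 7, 27, 52 and 74 aa), as the library's value with its 95% Wilson interval; y axes differ between panels. ATG3 stands at 0.787% with GFP and 6.55% with 7 aa, and BNIP3L at 2.79% with GFP, 5.80% with 7 aa and 0.978% with 74 aa.

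BNIP3L, the mitophagy receptor, had the most sites and reads of the members (ENSG00000104765, chromosome 8, 26382898 to 26505636, plus strand). Over its 22 sites read in every library, all in the 3' UTR, edited reads were 47 of 1683 with GFP (2.79%, 2.11 to 3.69). They were 107 of 1846 with 7 aa (5.80%, 4.82 to 6.96), 76 of 1619 with 27 aa (4.69%, 3.77 to 5.84), 90 of 1673 with 52 aa (5.38%, 4.40 to 6.57) and 17 of 1739 with 74 aa (0.978%, 0.611 to 1.56). The intervals of the 3 shorter linkers lay above that of GFP and that of the 74 aa fusion lay below it. The odds of editing against GFP were 2.13 times with 7 aa (95% interval 1.5 to 3.02) and differed by Fisher's exact test (adjusted p = 0.00065). With 52 aa the odds ratio was 1.97 (1.38 to 2.82, Fisher's exact test, adjusted p = 0.014). With 27 aa it was 1.71 (1.18 to 2.47) and missed the threshold (Fisher's exact test, adjusted p = 0.10). With 74 aa it was 0.350 (0.201 to 0.608, Fisher's exact test, adjusted p = 0.0042), near the 0.417 of all reads in that comparison. In the same exact test the 7 aa call was lost against the odds ratio of all reads (adjusted p = 0.32) and without the most-read site (adjusted p = 0.091), and the 52 aa call without that site (adjusted p = 0.33), in a range over 8 alternatives of 0.00058 to 0.32 at 7 aa and 0.012 to 0.33 at 52 aa. By that exact test the 74 aa call was lost against the odds ratio of all reads (adjusted p = 1) and with sites at least 150 bases apart (adjusted p = 0.92, range 0.00041 to 1).

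Editing of BNIP3L was unevenly spread along the 3' UTR. The annotated stop codon ends at 26410412 and basic transcripts end at 26410509, 26410666, 26411048 and 26413129. The 7 sites up to 26411048 had 18 of 730 edited reads with GFP (2.47%, 1.57 to 3.86). There the 7 aa fusion had 88 of 785 (11.2%, 9.19 to 13.6), the 27 aa fusion 70 of 795 (8.81%, 7.03 to 11), the 52 aa fusion 81 of 748 (10.8%, 8.80 to 13.3) and the 74 aa fusion 16 of 773 (2.07%, 1.28 to 3.34). Above GFP were 7 of these 7 sites with 7 aa, 6 with 27 aa, 7 with 52 aa and 2 with 74 aa. The 15 sites beyond 26411048 had 29 of 953 edited reads with GFP (3.04%, 2.13 to 4.34). The fusions had 1.79% of 1061 (7 aa), 0.728% of 824 (27 aa), 0.973% of 925 (52 aa) and 0.104% of 966 (74 aa). Here 9, 11, 9 and 11 of the 15 sites lay below GFP. At 26411834, 26411846, 26411905, 26411925, 26411951, 26412944 and 26413073 only GFP reached the 2 edited reads that every listed site had in some library. Only fusions reached 2 at 26410924, 26410949, 26410990 and 26411005 before 26411048. Beyond it that held for 26411111, 26411271, 26411280, 26411646 and 26411972. The listing thus shaped the direction at these sites. The division at 26411048 was chosen after the values were seen and has no test. Which of the annotated transcripts the reads came from was not tested.

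**Figure D2:**
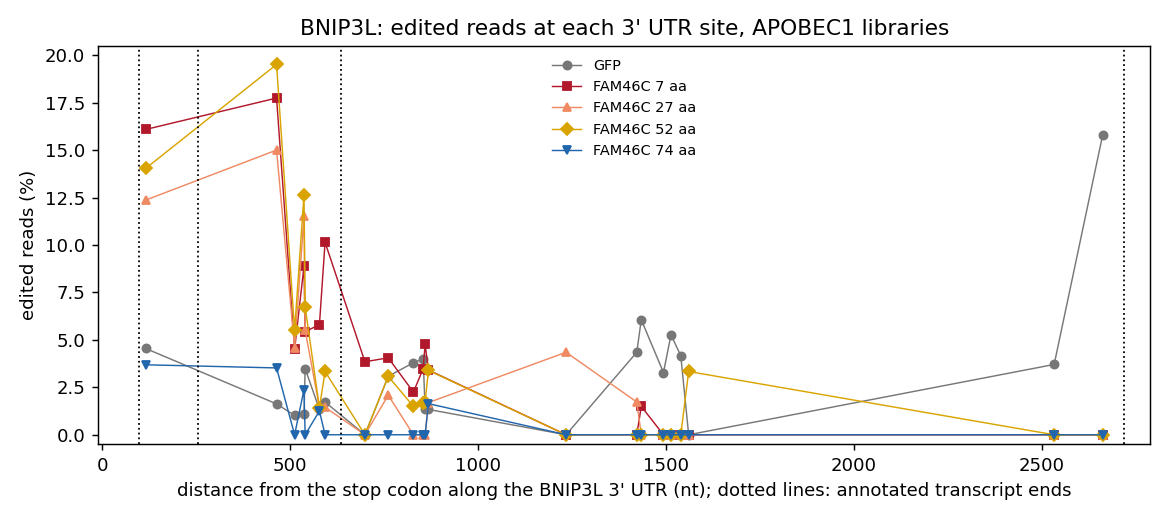
Edited reads (%) at each BNIP3L 3' UTR site (y axis) against its distance from the stop codon in nt (x axis) in the 5 APOBEC1 libraries, with annotated transcript ends as dotted lines and thin lines only joining sites of 1 library. The 3 shorter linkers lie above GFP before the third annotated end, except 1 site with 27 aa, and reach 19.5% with 52 aa, and GFP lies above most fusion values near the last one. The sites nearest the last end, 26412944 and 26413073, were listed through GFP alone.

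At BNIP3L 2 sites passed the site-level test, which took 68 member sites with at least 10 reads in both libraries and adjusted over all such sites of the series. At 26410528, 116 nt after the stop codon, edited reads were 9 of 198 with GFP, 37 of 230 with 7 aa, 23 of 186 with 27 aa, 32 of 228 with 52 aa and 8 of 217 with 74 aa. The share was 16.1% with 7 aa against 4.55% with GFP (Fisher's exact test, adjusted p = 0.032). The 52 aa value of 14.0% missed the threshold (Fisher's exact test, adjusted p = 0.33). At 26410876, 464 nt after the stop codon, edited reads were 2 of 123, 22 of 124, 21 of 140, 24 of 123 and 5 of 142 in the same order. This site was higher with 7 aa (17.7% against 1.63%, adjusted p = 0.0062 by Fisher's exact test) and with 52 aa (19.5%, adjusted p = 0.0078), and at 15.0% with 27 aa it had an adjusted p of 0.058. So 2, 0, 1 and 0 of the 68 member sites were called higher with 7, 27, 52 and 74 aa, where 0.458%, 0.142%, 0.101% and 0.00664% of all sites were. Against the odds ratio of all reads 0 sites were called higher with 7 aa and 1 with 52 aa. Lower calls were 0 of 68 in each, where 0.0265%, 0.00678%, 0.0201% and 0.0864% of all sites were. At the last site, 26413073, 56 nt before the final annotated end, GFP had 3 of 19 edited reads and the 4 fusions 0 of 15 to 31 reads, a depth at which no difference passed. That site was listed through GFP alone.

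ATG3, the E2-like enzyme that transfers ATG8 proteins to lipid, had the largest odds ratio against GFP of the 4 members with over 400 GFP reads in the 7 aa and 27 aa comparisons (ENSG00000144848, chromosome 3, 112532509 to 112562046, minus strand). Edited reads over its 11 sites were 5 of 635 with GFP (0.787%, 0.337 to 1.83). They were 45 of 687 with 7 aa (6.55%, 4.93 to 8.65), 21 of 526 with 27 aa (3.99%, 2.63 to 6.03), 21 of 742 with 52 aa (2.83%, 1.86 to 4.29) and 4 of 646 with 74 aa (0.619%, 0.241 to 1.58). GFP and the 74 aa fusion lay together at the low end and the 3 shorter linkers above both. At few of the 11 sites did GFP reach the 2 edited reads that every listed site had in some library. Most were thus listed through fusions alone. The listing shaped the direction of the differences from GFP, and the odds ratios and p-values below cannot be read apart from it. The odds ratio was 8.12 with 7 aa (3.33 to 19.8, adjusted p = 1.4e-06 by Fisher's exact test) and 4.88 with 27 aa (1.90 to 12.5, adjusted p = 0.013 by the same exact test). With 52 aa it was 3.42 (1.33 to 8.77) and missed the threshold (adjusted p = 0.15 by Fisher's exact test). With 74 aa it was 0.803 (0.230 to 2.80, adjusted p = 1 by the same exact test). Sites of ATG3 lie within 28 to 242 nt of the nearest transcript end, so they can share reads, which makes these p-values too small. With sites at least 150 bases apart, by the same exact test, the differences were 1.71 points at 7 aa (adjusted p = 0.95, range over 8 alternatives 1.2e-06 to 0.95) and 3.70 points at 27 aa (adjusted p = 1, range 0.011 to 1), and neither was called. The 27 aa call was also lost without the most-read site (adjusted p = 0.11, same exact test).

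Within ATG3, the 3 coding sites had 1 of 317 edited reads with GFP (0.315%) and 6.34%, 4.32%, 5.03% and 0.629% with 7, 27, 52 and 74 aa. All 3 were above GFP with each of the 3 shorter linkers. None of the 3 was listed through GFP, so the listing shaped that direction. The 8 sites of the 3' UTR had 1.26% with GFP and 6.76%, 3.56%, 1.18% and 0.610% with the fusions, so with 52 aa the coding sites lay above GFP and the 3' UTR sites did not. That contrast was noticed after the values were seen, cannot be read apart from the listing, and has no test. Of the 2 sites tied for the most edited reads, 112532723 had 0 of 100 edited reads with GFP, 11 of 113 with 7 aa, 2 of 94 with 27 aa, 6 of 104 with 52 aa and 1 of 101 with 74 aa. It did not pass alone (9.73% with 7 aa, Fisher's exact test, adjusted p = 0.15). The site nearest the end, 112532538, had 0 of 25, 5 of 20, 2 of 12, 0 of 36 and 1 of 25 in the same order.

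MAP1LC3B encodes LC3B, the ATG8 protein most used as an autophagosome marker (ENSG00000140941, chromosome 16, 87383995 to 87404779, plus strand). Edited reads over its 13 sites read in all libraries were 4 of 428 with GFP (0.935%, 0.364 to 2.38). They were 28 of 732 with 7 aa (3.83%, 2.66 to 5.47), 14 of 590 with 27 aa (2.37%, 1.42 to 3.94), 25 of 547 with 52 aa (4.57%, 3.11 to 6.66) and 5 of 588 with 74 aa (0.850%, 0.364 to 1.97). The 7 and 52 aa intervals lay above that of GFP, and the 27 aa interval overlapped it. The 52 aa fusion was called higher (odds ratio 4.6, 1.68 to 12.6, Fisher's exact test, adjusted p = 0.046). At none of the 13 sites did GFP reach the 2 edited reads that every listed site had in some library. All 13 were thus listed through fusions alone, and the listing shaped the direction of the differences. The 7 aa fusion just missed the threshold (odds ratio 3.82, 1.40 to 10.4, adjusted p = 0.053 by Fisher's exact test), and it passed with at least 10 reads per site (adjusted p = 0.048, range over 8 alternatives 0.048 to 0.95). With sites at least 150 bases apart, by the same exact test, the 52 aa difference was −0.229 points in place of 3.64 (adjusted p = 1, range over 8 alternatives 0.035 to 1), so the direction turned.

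The sites of MAP1LC3B fell in 2 stretches of the 3' UTR. The 9 sites that lie 67 to 260 nt after the stop codon had 0.880% edited reads with GFP (0.300 to 2.55) and 4.22%, 2.34%, 4.37% and 0.935% with 7, 27, 52 and 74 aa. These lie 1422 to 1615 nt before the annotated transcript end. The other 4, at 181 to 237 nt before that end, had 1 of 87 with GFP, 3 of 140, 3 of 120, 5 of 89 and 0 of 53, too few to tell apart. The most edited site, 87403264, had 1 of 40 edited reads with GFP, 4 of 58 with 7 aa, 2 of 48 with 27 aa, 4 of 45 with 52 aa and 1 of 60 with 74 aa. Another, 87403220, carried 6 of the 25 edited reads of the 52 aa library (6 of 52 reads, against 1 of 39 with GFP). MAP1LC3B2, a near-identical copy, held no APOBEC1 site, and how reads that match both copies were placed is not known. The remaining listed MAP1LC3B site, 87387836, lies outside the basic exons and also in FBXO31, and had 2 reads at most.

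GABARAPL2 (GATE-16) is an ATG8 protein of the GABARAP branch, at ENSG00000034713, chromosome 16, 75566351 to 75577881, plus strand. Its 15 sites all lie in the 3' UTR and also inside AC025287.1, an antisense gene, and reads of the 2 cannot be told apart without strand. Edited reads were 31 of 860 with GFP (3.6%, 2.55 to 5.07), 53 of 1019 with 7 aa (5.20%, 4.0 to 6.74), 24 of 847 with 27 aa (2.83%, 1.91 to 4.18), 20 of 952 with 52 aa (2.10%, 1.36 to 3.22) and 8 of 935 with 74 aa (0.856%, 0.434 to 1.68). Unlike ATG3 and MAP1LC3B, its values with 27 and 52 aa were not above GFP, and none of the 3 shorter linkers was called (Fisher's exact test, adjusted p = 0.60, 1 and 0.62). The 74 aa fusion was called lower (odds ratio 0.241, 0.112 to 0.518, Fisher's exact test, adjusted p = 0.0025), which was lost against the odds ratio of all reads (adjusted p = 0.88) and with sites at least 150 bases apart (adjusted p = 0.67, range over 7 alternatives 0.0022 to 0.88). GFP editing was dense at the very end: the 3 sites within 99 nt of the later transcript end had 9 of 51 edited reads with GFP (17.6%, 9.57 to 30.3), 15 of 105 with 7 aa (14.3%), 2 of 70 with 27 aa (2.86%), 3 of 58 with 52 aa (5.17%) and 2 of 68 with 74 aa (2.94%). The last of them, 75577857, had 6 of 17, 9 of 31, 2 of 20, 2 of 18 and 0 of 21 edited reads. At the other 12 sites the shares were 2.72% with GFP and 4.16%, 2.83%, 1.90% and 0.692% with the fusions. GFP reached the 2 edited reads needed for listing at several GABARAPL2 sites, such as 75577857, but at few of ATG3 and none of MAP1LC3B. The contrast between these genes cannot be read apart from that. Whether GABARAPL2 differs from ATG3 or MAP1LC3B in its response was not tested.

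**Figure D3:**
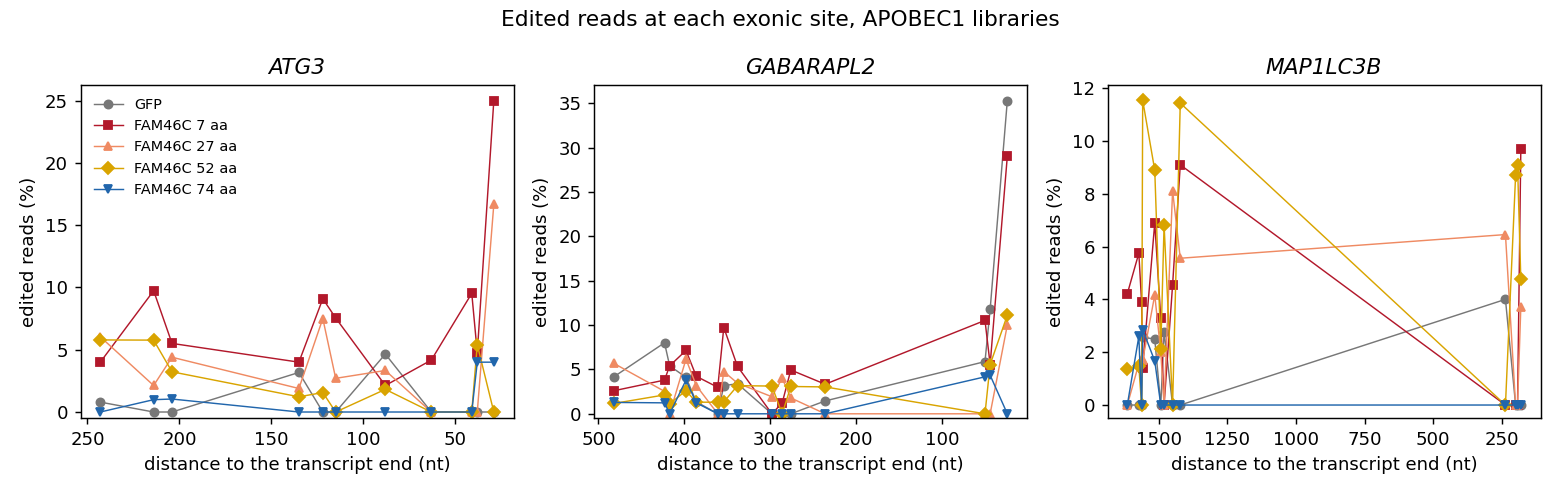
Edited reads (%) at each exonic site (y axis) of ATG3, GABARAPL2 and MAP1LC3B against the distance to the annotated transcript end in nt (x axis, the end at the right) in the 5 APOBEC1 libraries; thin lines only join sites of 1 library. The last GABARAPL2 site is at 35.3% with GFP and 29% with 7 aa on 17 and 31 reads, and the last ATG3 site at 25.0% with 7 aa on 20 reads.

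The other members with APOBEC1 sites had few reads. ATG12, the ubiquitin-like protein (ENSG00000145782, chromosome 5, 115828200 to 115841858, minus strand), had 0 of 145 edited reads with GFP, which allows up to 2.07%. It had 5 of 165 with 7 aa (3.03%), 3 of 132 with 27 aa (2.27%), 2 of 153 with 52 aa (1.31%) and 0 of 107 with 74 aa, and no comparison passed (lowest adjusted p = 0.42, Fisher's exact test, at 7 aa). ATG13 (ENSG00000175224, chromosome 11, 46617527 to 46674818, plus strand) had 4 of 99 with GFP (4.04%, 1.58 to 9.93), 0 of 92, 2 of 76, 0 of 89 and 0 of 94, with none called. Of its 3 sites, the one in the 5' UTR, 46617858, is shared with HARBI1. ATG7, the E1-like enzyme (ENSG00000197548, chromosome 3, 11272309 to 11557665, plus strand), had 1 coding site, with 2 of 10 edited reads at 27 aa and 0 of 6 to 10 in the other libraries. SQSTM1, ATG5 and ULK1 held no APOBEC1 site.

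**Figure D4:**
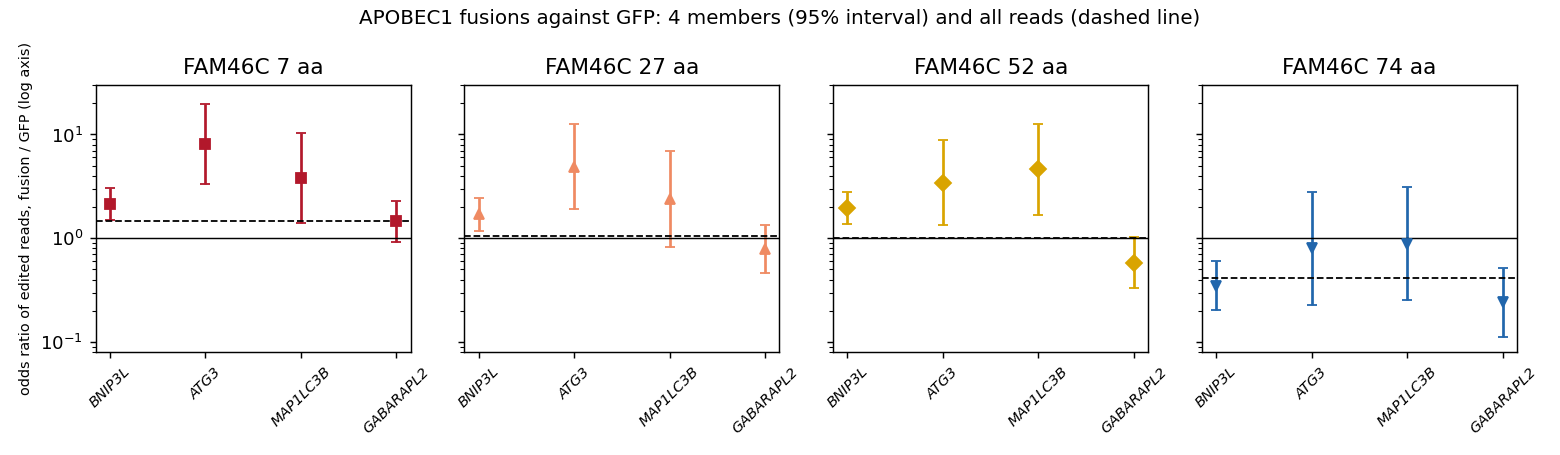
Odds ratio of edited reads, fusion against GFP (y axis, log scale), for the 4 members with the most reads (x axis), 1 panel per APOBEC1 fusion, with 95% intervals; the dashed line is the odds ratio of all reads and the solid line is 1. ATG3 is at 8.12 with 7 aa, and with 74 aa BNIP3L (0.350) and GABARAPL2 (0.241) lie near or below the line for all reads at 0.417. Most ATG3 sites were listed through fusions alone.

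The shortest and the longest linker were also compared directly, without the GFP library. Between 7 and 74 aa, 4 of 7 members had more editing with 7 aa, where 11.4% of all genes did, and 0 had less (0% of all genes). These were BNIP3L (odds ratio 6.08, 3.65 to 10.1, adjusted p = 6.2e-14 by Fisher's exact test), ATG3 (10.1, 3.81 to 26.8, adjusted p = 1.1e-07), GABARAPL2 (6.04, 2.91 to 12.5, adjusted p = 6.5e-07) and MAP1LC3B (4.29, 1.71 to 10.8, adjusted p = 0.0069). All reads of the 2 libraries differed by an odds ratio of 3.49 in the same direction. Against that ratio 0 of the 4 stayed called (Fisher's exact test, adjusted p from 0.47 to 1), and over all genes 3 were higher and 9 lower in place of 704 and 0.

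The member sites lay mostly in 3' UTRs, 62 of 71 (87.3%), against 57.2% of the 17971 APOBEC1 sites placed in a gene. Over all 3' UTR sites of the series, those under 400 nt from an annotated end had 2.96% edited reads with GFP and 5.80%, 4.10%, 3.87% and 1.18% with the fusions, and those farther away had 3.87% with GFP and 3.76%, 2.47%, 2.64% and 0.915%. The 3 shorter linkers were thus above GFP near an end. Farther away the 27 and 52 aa fusions were below GFP, and the 7 aa interval (3.68 to 3.84) overlapped that of GFP (3.79 to 3.96). In BNIP3L these linkers had shares on both sides of GFP within 1 gene. Its 9 near sites had 2.86% with GFP and 9.93%, 8.17%, 9.60% and 1.84% with the fusions. Its 13 far sites had 2.73% with GFP and 1.98%, 0.787%, 1.09% and 0.115%. Of its 9 near sites, the 2 by the last end, 26412944 and 26413073, went the other way, with 2 of 54 and 3 of 19 edited reads with GFP and 0 with every fusion. These 2 were listed through GFP alone, so their direction was set by the listing. In MAP1LC3B the pooled share of the 9 far sites was above GFP with all 3 shorter linkers, as given above. The 27 aa interval (1.31 to 4.14) overlapped that of GFP (0.300 to 2.55). Singly, 7, 6 and 7 of the 9 sites lay above GFP with 7, 27 and 52 aa, and none was listed through GFP. The 15 GABARAPL2 sites, all near an end, were at 2.83% and 2.10% with 27 and 52 aa, under the 3.6% of GFP, and at 5.20% with 7 aa. The polyadenylation hexamer AATAAA, searched on the transcript strand only, began within 200 nt downstream of 30 of 62 member 3' UTR sites (48.4%), against 42.1% of the 11357 in the series. It did so at 8 of 8 ATG3 sites, 12 of 13 MAP1LC3B sites, 7 of 22 BNIP3L sites and 3 of 15 GABARAPL2 sites. For the 9 far MAP1LC3B sites the hexamer lay 19 to 184 nt downstream, and the window of 87403357 above itself holds an aataaa before the edited base. A match is a description of the letters and not of a site in use.

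Of 61 other genes of the pathway (initiation, lipid kinase, membrane supply, conjugation, ATG8 family, receptors, fusion and regulators), 27 could be tested with APOBEC1. Called higher and lower were 1 and 1 with 7 aa (4.15% and 0.824% of all genes), 0 and 1 with 27 aa (1.65% and 1.32%), 0 and 1 with 52 aa (1.07% and 0.888%) and 0 and 4 with 74 aa (0.113% and 5.18%). BECN1, a subunit of the autophagy lipid kinase complex, was the higher one, at 7.84% of 255 reads with 7 aa against 0.599% of 167 with GFP (Fisher's exact test, adjusted p = 0.011), and its 8 sites also lie in CNTD1. It was at 1.60%, 2.08% and 0.901% with 27, 52 and 74 aa. ATG10 was called lower in all 4 comparisons, at 0.625% to 1.82% against 10.4% of 193 reads with GFP, but its 9 sites all lie in RPS23, a ribosomal protein gene, and are uncertain. With 74 aa the ferritin receptor NCOA4 was at 0 of 658 reads against 2.22% with GFP (Fisher's exact test, adjusted p = 0.0022), the GTPase RAB7A at 0.567% against 2.13% (adjusted p = 0.018), and SEC62 at 0 of 259 reads against 3.85% (adjusted p = 0.023). TAX1BP1, a cargo receptor, was at 1.38% with GFP and 3.69%, 2.68%, 4.48% and 1.04% with the fusions, with none called. The median of the 27 lay at 0, −0.00314, −0.385 and −1.67 points from GFP, below that of the 7 members in each comparison.

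With ADARcd the members gave little to compare. The 3 fusions with 27, 47 and 74 aa had a median of 2, 1 and 1 reads per site over the series, and 9 of 15 member sites were outside annotated basic exons (60%, against 58.9% of all ADARcd sites placed in a gene). Over all member sites, edited reads were 22 of 480 with GFP (4.58%, 3.05 to 6.84), 15 of 543 with 7 aa (2.76%), 4 of 251 with 27 aa (1.59%), 3 of 213 with 47 aa (1.41%) and 5 of 178 with 74 aa (2.81%). Each fusion's interval overlapped that of GFP. Of the 5 members tested among 4772 genes, 0 were called in any comparison, with 1, 0, 1 and 1 at an unadjusted p under 0.05 in order of linker length, where 417, 342, 418 and 382 of all genes were. Of all genes, 0.0419%, 0.503%, 0.356% and 0.377% were called higher and 3.14%, 0.419%, 0.377% and 0.189% lower with 7, 27, 47 and 74 aa. Between 7 and 74 aa, 0 of 5 members were called, where 0.0210% of genes were higher with 7 aa and 2.14% lower. Against the odds ratio of all reads the calls over all genes were 6 higher and 80 lower at 7 aa (2 and 150 against 1), 46 and 15 at 27 aa (24 and 20), 33 and 10 at 47 aa (17 and 18) and 26 and 4 at 74 aa (18 and 9), and 2 and 67 between 7 and 74 aa (1 and 102). At the site level 7, 6, 6 and 6 member sites were tested and 0 called. Of all sites 0%, 0.192%, 0.0216% and 0.0656% were called higher and 1.42%, 0.269%, 0.216% and 0.0656% lower.

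ATG13, the scaffold of the ULK1 complex, came nearest to a call with ADARcd. It had 7 of 103 edited reads with GFP (6.80%, 3.33 to 13.4) and 0 of 119 with 7 aa (which allows up to 2.52%), 0 of 44 with 27 aa, 0 of 46 with 47 aa and 0 of 49 with 74 aa. The difference with 7 aa missed the threshold (Fisher's exact test, adjusted p = 0.10). Both ATG13 sites behind these counts, 46669462 and 46673497, had edited reads with GFP alone. They were thus listed through the library in which they are high, and the contrast cannot be read apart from that. The 0 edited reads of the longer linkers allow up to 6.82%, 6.52% and 6.12%, close to the GFP share. Of the 7 edited reads 5 were at 1 site of the 3' UTR, 46673497 (5 of 39), shown here because it carries the GFP value, with the edited A in capitals.
ATG13 3' UTR, position 46673497: tgtagtggttAggggatgttg
SQSTM1 (ENSG00000161011, chromosome 5, 179806398 to 179838078, plus strand) had 1 site, at 179806706, with 6 of 48 edited reads with GFP (12.5%, 5.86 to 24.7), 4 of 60 with 7 aa, 2 of 50 with 27 aa, 0 of 45 with 47 aa and 1 of 40 with 74 aa. This site lies outside the basic exons of SQSTM1 and in the 5' UTR of MGAT4B on the other strand, so its gene is uncertain. ATG12 had 5 of 48, 2 of 48, 0 of 16, 2 of 13 and 0 of 11 edited reads, and ATG7 0 of 16, 0 of 28, 0 of 6, 0 of 11 and 2 of 10. BNIP3L, the member with the most APOBEC1 sites, had 0 of 256 edited reads with GFP and 0 of 273 with 7 aa (allowing up to 1.17% and 1.10%), then 2 of 134 with 27 aa, 0 of 96 with 47 aa and 2 of 68 with 74 aa. ATG3, GABARAPL2 and MAP1LC3B held no ADARcd site, so the 2 deaminases cannot be compared on them.

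**Figure D5:**
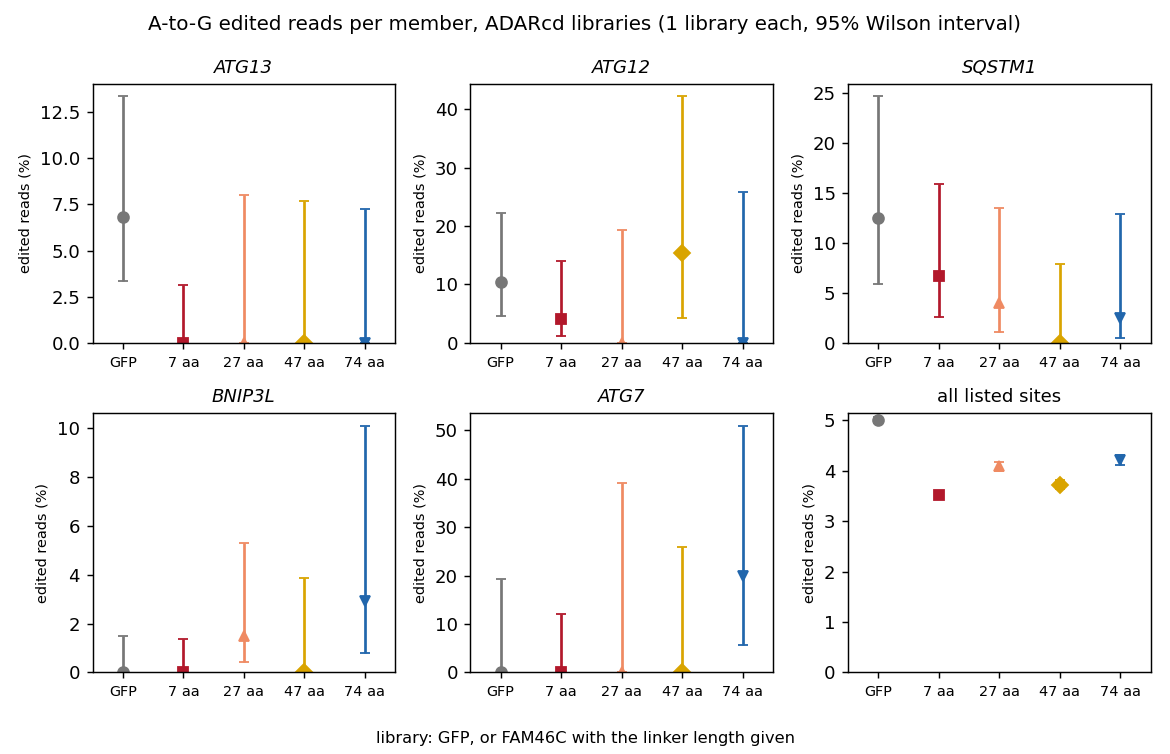
Edited reads (%) on the y axis for each member and for all listed sites in the 5 ADARcd libraries (x axis: GFP, then FAM46C with 7, 27, 47 and 74 aa), as the library's value with its 95% Wilson interval; y axes differ between panels. The intervals of the members are wide, for example 4.33% to 42.2% for ATG12 with 47 aa on 13 reads.

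In the authors' deposited table for each APOBEC1 fusion, sites of ATG3 and BNIP3L were the only member sites. They numbered 7 of 613 sites with 7 aa, 4 of 300 with 27 aa, 5 of 243 with 52 aa and 0 of 32 with 74 aa. Members held 71 of the 18069 APOBEC1 sites of the series. The smallest member p-value in the authors' deposited table was 8.3e-06 at 7 aa, 5.9e-05 at 27 aa and 1.8e-06 at 52 aa, each at BNIP3L position 26410876. For ATG3 the authors' deposited table had its smallest p-value, 0.00074, at position 112532723 with 7 aa. With ADARcd 1 member site was in the authors' deposited tables, BNIP3L position 26411187 with 27 aa (p-value 0.036). The authors' p-values rest on the same libraries as the tests above, so they are not a separate check of them.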

How the data were processed

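For each of 10 libraries the authors deposited, per site, counts of reads with the reference base and with the edited base, not normalised. GRCh38, HISAT2 2.2.1, Picard 2.27.1 and SAMtools 1.18 are listed, without their roles, per the submitters' processing notes. The sources used here do not give how sites were chosen. The authors also deposited a table of sites with a p-value for each fusion, from which only the listed members and p-values were used. Its 48 columns of per-sample values match no single label and were not used. The highest reads at 1 site were 300 to 314 per APOBEC1 library and 238 to 288 per ADARcd library, and reads per site were not used as a measure of expression.

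Sites were placed in GENCODE release 29 gene bodies, counting for each gene that spans them. Regions and distances use basic transcripts. The 2 sites with repeated records were left out. Edited and unedited reads were tested per gene (sites read in all 5 libraries) and per site (at least 10 reads in both libraries) with a two-sided Fisher's exact test and Benjamini-Hochberg adjustment over all genes or sites, called at an adjusted p under 0.05 (Python 3.11.15, scipy 1.17.1, pandas 2.3.3). Wilson intervals are at 95%, and the limit for 0 edited reads is 3 reads. Odds ratios and their normal-approximation 95% intervals were computed with 0.5 added to each of the 4 counts. Tested on simulated data, the gene test recovered 27.0% of 200 genes changed at an odds ratio of 4 in the 7 aa APOBEC1 comparison of 6192 genes and 16.5% in the 7 aa ADARcd comparison of 4772 genes, with 0 false calls. The simulated reads were independent, and unchanged genes had the same share in both libraries. Reads shared between sites, a shift of a whole library and culture-to-culture spread were absent, so the 0 does not give the false calls in the real data. Named are all members with a site, their called or most edited sites, and, of 61 other pathway genes, those called and the 4 with the most GFP-APOBEC1 reads. Other sites are described by place. Members and lists were chosen with earlier results of these data known. Alternatives were the odds ratio of all reads, other site filters, and sites at least 150 bases apart, the last chosen after seeing the data.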

Additional observations from a re-analysis of the deposited data

How the results depend on the processing

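No paired analysis was possible because each construct has 1 library and the labels give no replicate numbers. Neighbouring sites can share reads, and 1 library per construct leaves culture-to-culture spread unmeasured. Members called higher with the 7 aa APOBEC1 fusion numbered 2, and 1 against the odds ratio of all reads, 1 without each gene's most-read site and 1 with sites at least 150 bases apart, but 3 with at least 10 reads per site. With 27 aa the 1 became 0 without the most-read site. With 52 aa the 2 became 1 without that site and 1 at 150 bases. With 74 aa the 2 called lower became 0 against the odds ratio of all reads, 1 without sites in more than 1 gene and 0 at 150 bases. Between 7 and 74 aa the 4 became 0 against the odds ratio of all reads and 1 at 150 bases. At the site level, the 2 called with 7 aa became 0 against the odds ratio of all reads, and with 27 aa the 0 became 1 with at least 20 reads. MAP1LC3B with 52 aa turned to −0.229 points at 150 bases. BNIP3L with 27 aa passed there, at 5.48 points (Fisher's exact test, adjusted p = 0.025, range over 8 alternatives 0.025 to 0.54). ATG3 with 27 aa was at 2.63 points without the most-read site (Fisher's exact test, adjusted p = 0.11). With sites 150 bases apart, which tests fewer reads, the genes called higher over the series fell from 257 to 52 with 7 aa, 102 to 12 with 27 aa and 66 to 3 with 52 aa, and those called lower with 74 aa from 321 to 72. GABARAPL2 has no value without sites in more than 1 gene. The ADARcd calls of members stayed at 0 in each alternative run. For the members the causes of these changes were not tested. At 6 to 165 reads per library, ATG7, ATG12 and ATG13 with APOBEC1 could show large differences only.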
